A study of Homo sapiens with 14 samples.

Results

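The regions described here are 2759 accessible sites of LHCN myoblasts that had a strong ATAC-seq peak in both libraries with an empty vector and no listed peak in either library with PAX3-FOXO1. They were selected on those 4 peak lists. The 100000 strongest peaks of each vector list, ranked by the authors' −log10 q value, were merged where they overlapped by 1 bp into 107222 regions, and 91025 of these held such a peak from both lists. Of the 91025 regions, 84553 also had a peak in both PAX3-FOXO1 lists, 3713 had a peak in 1 of them, and the remaining 2759, which are 3.03%, had none. Because this contrast chose the regions, its values are given as a description and are not tested. For scale, the same rule turned round, a strong peak in both PAX3-FOXO1 lists and no peak in either vector list, found 4605 of 88931 regions.

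LHCN, an immortalised human myoblast line, overexpressed PAX3-FOXO1 for 72 h, with LHCN carrying an empty vector for the same time beside it. RH30, an alveolar rhabdomyosarcoma line that carries its own PAX3-FOXO1 fusion, was given 200 nM QC6352, an inhibitor of the KDM4 demethylases, with 0.1% DMSO as vehicle, or was transduced with the hairpins shKDM4B-813 or shKDM4B-814 against KDM4B, with shCtrl as control hairpin. For RH30 the labels give 72 h as well, but do not make clear whether it holds for QC6352 and DMSO or only for the hairpins. Each of the 7 groups had 2 libraries, 14 in all, and all RH30 groups share the fusion of that line. Nothing in the labels ties replicates to separate cultures, so the spread between them can be technical only.

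ATAC-seq uses the Tn5 transposase to insert sequencing adapters into open DNA, so a peak marks a stretch where nucleosomes leave the DNA accessible, as at promoters and enhancers in use. PAX3-FOXO1 joins the DNA-binding domains of PAX3, a factor of muscle precursors, to the activation domain of FOXO1, and drives alveolar rhabdomyosarcoma. It is best known for opening and activating enhancers. The KDM4 enzymes remove methyl groups from lysines of histone H3, among them marks of silent chromatin, and KDM4B is a member of that family.

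Before any hairpin result, a conflict in the deposited lists has to be stated. In 6 of 14 lists the name written in the peak column disagrees with the sample title. The lists titled shCtrl carry peaks named sh813, those titled shKDM4B-813 carry peaks named sh814, and those titled shKDM4B-814 carry peaks named shCtrl. The other LHCN and RH30 lists carry names that match their titles. Which of the 2 readings is right is not settled, so hairpin libraries are called by their titles and each hairpin result is given under both readings. The depth of the knockdown was not measured in these files.

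The LHCN lists held 175594 and 170390 peaks with PAX3-FOXO1 and 174811 and 173256 peaks with vector. The RH30 lists ran from 93488 peaks in the second library titled shKDM4B-814 to 176899 in the second QC6352 library. For RH30, each list was therefore trimmed to its 93488 strongest peaks unless the text says deposited. Lists of peaks give no read counts, so sequencing depth is unknown, and a region without a peak is one where nothing passed the caller's limit, not one shown to be closed. In bulk libraries, fewer cells with an open site and less opening per cell cannot be told apart.

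Within the vector lists these regions were mostly of middling strength, and none was among the strongest. The authors' fold over background had a median of 11.3 in the first vector library and 11.5 in the second, with the highest values at 40.8 and 40.5. In the regions that kept a peak in both PAX3-FOXO1 libraries the medians were 21.4 and 21.6. Each region was ranked by the weaker of its vector peaks. No region of rank 1 to 20000 lacked a PAX3-FOXO1 peak, and 4 regions of rank 20001 to 30000 did, which is 0.0430% of that band. The share was 0.627% at ranks 40001 to 50000, 3.58% at ranks 60001 to 70000, 8.0% at ranks 80001 to 90000 and 11.4%, or 1003 regions, at ranks 90001 to 100000. The median rank was 85066, so the word strong holds only relative to the whole list.

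**Figure D1:**
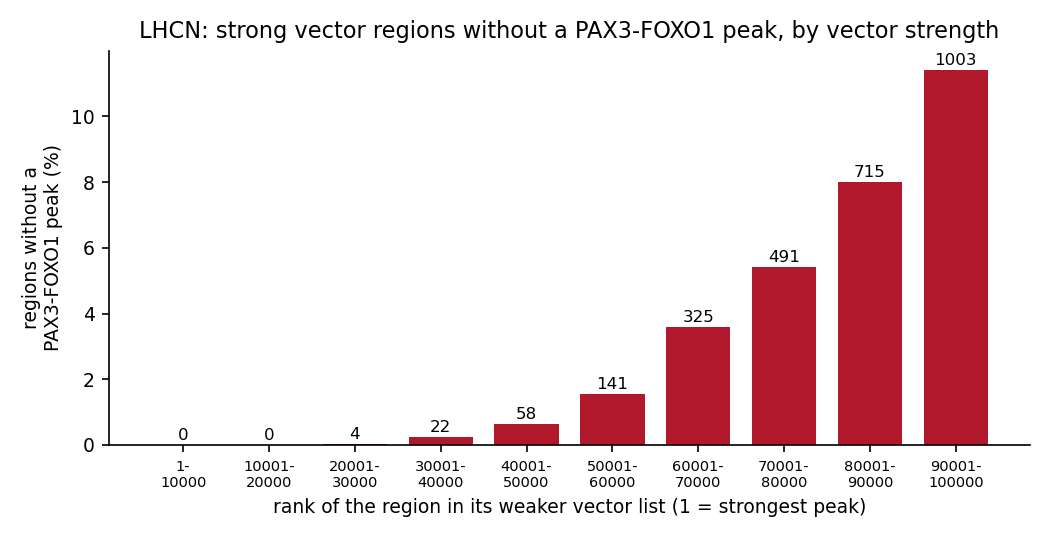
Percent of strong vector regions with no PAX3-FOXO1 peak (y axis) by the rank of the region in its weaker vector list, in bands of 10000 ranks (x axis); the number above each bar counts the regions. The share is 0 in the 2 strongest bands and 11.4% in the weakest.

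The regions were narrow and sat at the same place in both vector libraries. Their median width was 331 bp, with a range of 208 to 1324 bp, against a median of 471 bp for regions kept with PAX3-FOXO1. The summits of the 2 vector peaks lay a median of 15 bp apart, against 12 bp in kept regions. Both classes hold only regions merged from peaks of both vector lists, so the selection itself favours close summits. The nearest PAX3-FOXO1 peak was a median of 4350 bp away in the first PAX3-FOXO1 library and 4030 bp away in the second. It lay within 500 bp for 226 regions (8.19%) in the first library and 240 regions (8.70%) in the second. Most of the regions thus had no PAX3-FOXO1 peak within 500 bp, while a minority did. The rule had already excluded peaks that overlap the regions, and the distance was not measured for other regions. It therefore cannot show whether the surroundings held fewer PAX3-FOXO1 peaks than usual.

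The limits of the rule fell among regions that differed little. Just inside the strength limit were the regions chr13:98530631-98531162, chr13:80562704-80563005 and chr13:72700602-72700919, all with a fold of 8.57 in the second vector library. Just outside it were chr15:95235920-95236229, chr15:99394968-99395217 and chr16:25031597-25031935, all with a fold of 8.63 and a −log10 q of 19.1 in the first vector library. Peaks with equal values were ordered by position there, so the limit separated like values. A further 2904 regions with no PAX3-FOXO1 peak were strong in 1 vector list only, and 2785 of them had a weaker peak in the other. On the side of the fusion, the region chr5:167079654-167080123 was left out for a single PAX3-FOXO1 peak of fold 3.10. Likewise, chr11:94270175-94270816 and chr6:93472706-93473179 were left out for a single peak of fold 3.43. The number of regions rested on single libraries too. It was 5490 without the second PAX3-FOXO1 library and 4362 without the first vector library.

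The 10 regions strongest in the vector lists had folds of 26.2 to 40.8 there, and in 7 of them no RH30 list, trimmed or deposited, held a peak. The leading one, chr10:93402428-93403191 (hg19, as for all coordinates here), had no listed peak with PAX3-FOXO1 and folds of 35.7 and 40.5 with vector. The others without an RH30 peak were chr9:98918227-98919251 (vector folds 38.1 and 34.3), chr3:42820676-42821451 (30.0 and 32.2), chr13:102352959-102353299, chr1:112250526-112250861, chr12:107255715-107256132 and chr2:134104214-134104630. These sites were thus listed as open only in the vector libraries of the 14. Of the other 3, the region chrX:39813094-39813498 had vector folds of 27.4 and 31.6 and a peak in all 10 RH30 lists, with folds of 6.17 to 13.4. The regions of chromosome 1 and chromosome 5 had peaks in hairpin libraries and are described with them.

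The regions were spread over the chromosomes, with some unevenness. Chromosome 7 held 260 of them, which is 4.39% of its 5916 strong vector regions, against 3.03% over all chromosomes. It held 9.42% of the regions without a PAX3-FOXO1 peak and 6.50% of all strong vector regions. The reverse rule found 152 of its 4605 regions on chromosome 7. On chromosome 6, which had 5646 strong vector regions, it found 318. On chromosome 17 it found 84 beside 3245 strong vector regions, and on chromosome 19 50 beside 2352. The strong PAX3-FOXO1 regions, from which the reverse rule draws, were not counted by chromosome. Chromosome 7 was thus high for regions without a PAX3-FOXO1 peak. For the reverse rule it was low beside chromosome 6 but not beside chromosomes 17 and 19. Copy number was not measured in the LHCN libraries, and its part in this was not tested. Chromosome 21 followed with 36 regions (4.09%), while chromosome 16 had 45 (1.70%), chromosome 19 2.00% and chromosome 20 2.04%. Chromosomes 16, 19 and 20 thus lay below the share of the whole and chromosomes 7 and 21 above it.

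**Figure D2:**
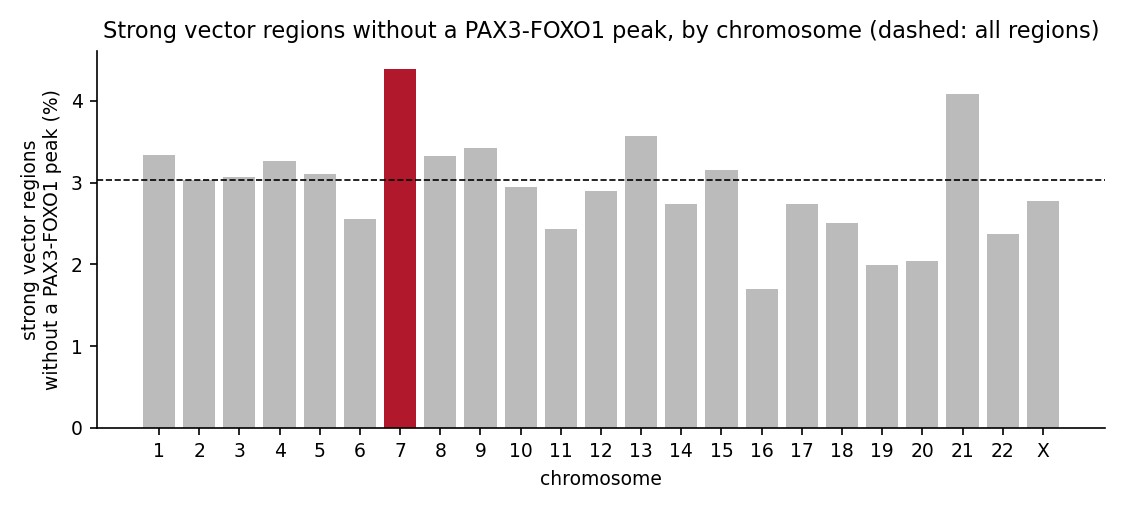
Percent of strong vector regions with no PAX3-FOXO1 peak (y axis) on each chromosome (x axis), with chromosome 7 in red and the share over all chromosomes, 3.03%, as a dashed line. Chromosome 7 is highest at 4.39% and chromosome 16 lowest at 1.70%.

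Along the chromosomes the regions had one another as neighbours more often than kept regions had them. Of the 2759 regions, 289 (10.5%) were next to another of them in the order of strong vector regions, against 4749 kept regions (5.62%). A region of the reverse rule lay within 100 kb of 463 of them (16.8%), against 19608 kept regions (23.2%), and the median distance to one was 345 kb against 284 kb. Sites that lost and sites that gained a peak with the fusion were thus less often close to each other than kept sites were to gained sites. The classes differ in vector rank and width and were not matched for them here, and the part of these was not tested. These neighbour counts were chosen after the data were seen, and since the selection fixed both sets they carry no test. The fullest 1 Mb windows, picked by count, held few regions each. The window chr7:48000001-49000000 held 10 of 52 strong regions, and chr7:24000001-25000000 held 9 of 58. On chromosome 15, chr15:34000001-35000000 held 9 of 41 and chr15:95000001-96000000 held 8 of 34. The window chr2:223000001-224000000 held 8 of 64, with 0 regions of the reverse rule, and chr1:209000001-210000000 tied with these at 8 of 78. Over the genome 736 windows held 1 of the regions and 410 held 2.

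The RH30 libraries played no part in the selection, and in them the regions were rarely listed as open. Of the 2759, 2432 (88.1%) had no peak in any of the 10 RH30 lists and 327 (11.9%) had one in at least 1. Of the kept regions, 72.2% had a peak in at least 1 RH30 library and 27.8% in none. Only 17 regions had a peak in all 10 lists and 25 in at least 9, which is 0.906%, against 35.8% of kept regions in at least 9. A peak in a single RH30 library accounted for 140 of the 327 regions. In the deposited lists, which are longer, 422 regions had a peak in some RH30 library and 2337 had none. All 4 control libraries, by title, had a peak in 27 regions, and by the peak names in 32.

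**Figure D3:**
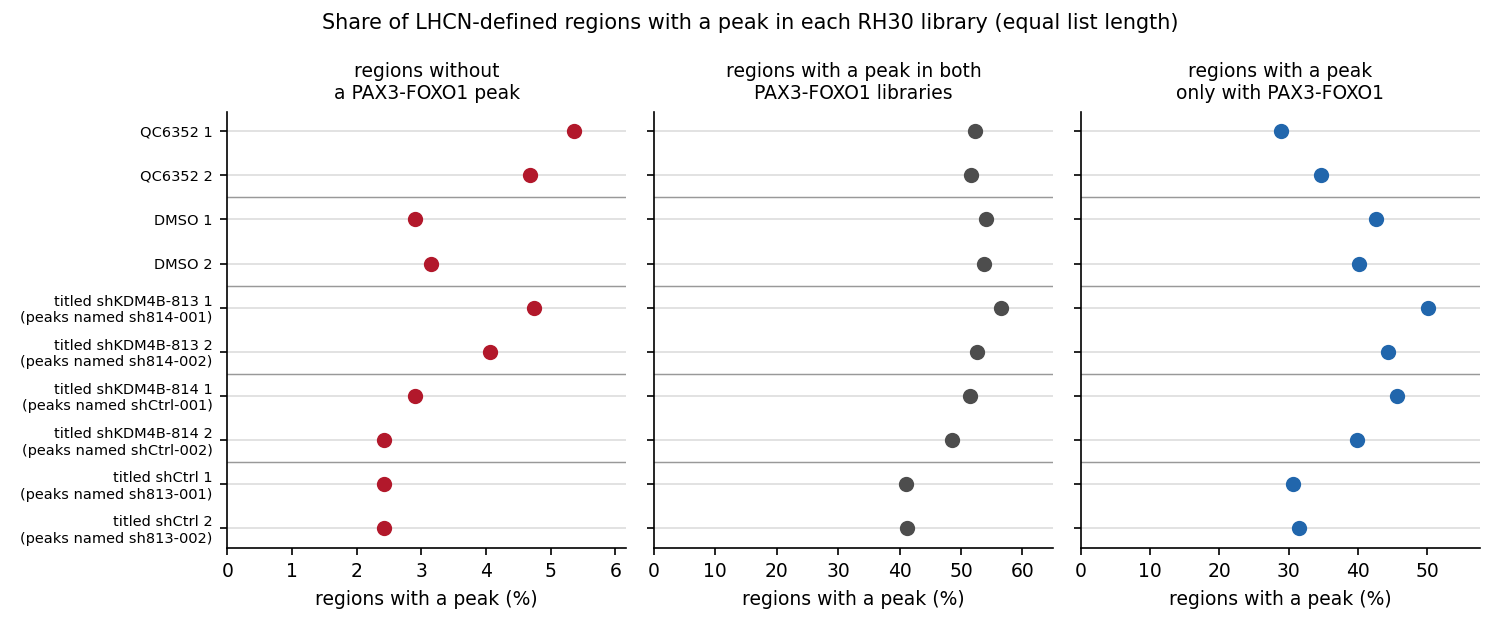
Percent of regions with a peak (x axes, which differ in range) in each RH30 library (rows, 93488 strongest peaks each), for the 2759 regions without a PAX3-FOXO1 peak (left), the kept regions (middle) and the regions of the reverse rule (right). At left the QC6352 libraries lie at 5.36% and 4.68% and the DMSO libraries at 2.90% and 3.15%.

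The low share was also seen within bands of like vector rank. Such bands match the classes by that rank only, and the classes were still set by the PAX3-FOXO1 lists. Kept regions were also wider, at a median of 471 bp against 331 bp, and the part of width was not tested. Among regions of rank 90001 to 100000, 2.99% and 3.49% of those without a PAX3-FOXO1 peak had a peak in the DMSO libraries, against 32.7% and 32.8% of kept regions. Regions with a peak in 1 PAX3-FOXO1 library lay between them, at 10.6% and 12.2%. The same order held in the bands from rank 50001 on, while the few regions of the stronger bands gave scattered values. Over the whole classes, not matched by vector rank, RH30 peaks in the regions were also weaker within their lists. The median vector rank was 85066 in the regions and 46109 in kept regions, and the part of this was not tested. The median percentile of RH30 peaks in the regions, among the 93488 strongest peaks, ran from 33.6 to 51.5 over the 10 libraries. For peaks in kept regions it ran from 63.5 to 73.6.

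**Figure D4:**
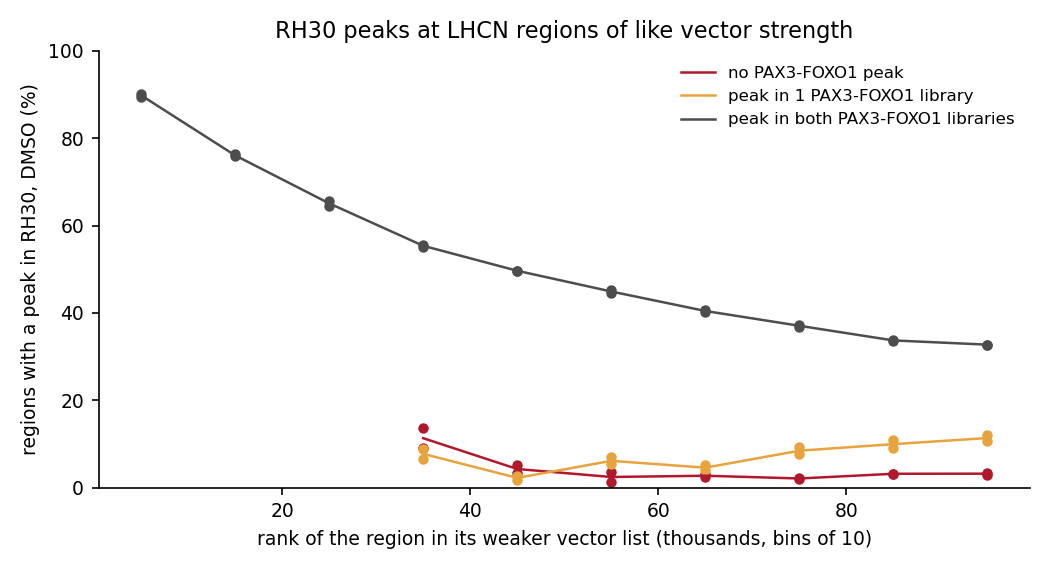
Percent of regions with a peak in the DMSO libraries of RH30 (y axis) by the rank of the region in its weaker vector list (x axis, bins of 10000 ranks), for regions with no PAX3-FOXO1 peak (red), a peak in 1 PAX3-FOXO1 library (orange) and a peak in both (grey). Points are the 2 libraries, lines their mean, and bins under 20 regions are left out; the weakest bin has about 3% in red and 32.7% and 32.8% in grey.

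Inhibition of KDM4 was compared with vehicle to ask whether the sites open in RH30 when these enzymes are blocked. QC6352 libraries listed more of the regions than DMSO libraries did, though few were listed in either. With QC6352 148 and 129 regions (5.36% and 4.68%) had a peak, against 80 and 87 (2.90% and 3.15%) with DMSO. The means were 5.02% ± 0.487 with QC6352 and 3.03% ± 0.179 with DMSO (SD, n = 2 each), and the groups did not overlap. In the deposited lists the counts were 166 and 208 with QC6352 and 90 and 117 with DMSO. A design of 2 against 2 libraries allows no p below 0.33 in an exact permutation test, so none is given.

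Of the other classes, 1 moved the same way and the others did not. Kept regions had a peak in 52.2% and 51.6% with QC6352, against 54.0% and 53.7% with DMSO. Regions of the reverse rule had one in 29.0% and 34.7% with QC6352, against 42.6% and 40.2% with DMSO. Regions with a peak in 1 PAX3-FOXO1 library had 13.5% and 10.2% with QC6352, against 8.30% and 9.86% with DMSO. The groups did not overlap there over the whole class or in the bands from rank 50001 to 80000, but did in the weaker bands. In this class the shares at ranks 90001 to 100000 were 15.3% and 11.7% with QC6352 and 10.6% and 12.2% with DMSO. At ranks 80001 to 90000 they were 14.9% and 9.28% with QC6352 and 9.07% and 10.9% with DMSO. Over the whole class, a higher share with QC6352 was thus not particular to regions without any fusion peak. Sites found only with the fusion were less often listed with QC6352. By vector strength, the QC6352 libraries lay above the DMSO libraries in each band from rank 60001 on, which hold most of the regions. At ranks 90001 to 100000 the shares of regions without a PAX3-FOXO1 peak were 5.68% and 4.59% with QC6352 and 2.99% and 3.49% with DMSO, and at ranks 80001 to 90000 they were 6.15% and 5.73% with QC6352 and 3.22% in both DMSO libraries. In the stronger bands this was not so. The shares were 4.26% and 2.84% with QC6352 and 1.42% and 3.55% with DMSO among the 141 regions of rank 50001 to 60000, and 3.45% and 1.72% with QC6352 and 5.17% and 3.45% with DMSO among the 58 of rank 40001 to 50000.

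Region by region, a site was called gained if both treated libraries and no control library had a peak, and lost in the reverse case. With QC6352, 34 of the 2759 regions were gained, where 4.42% of all 202912 RH30 regions were, and 7 were lost, where 5.35% of all RH30 regions were. Of the 327 regions with any RH30 peak these are 10.4% and 2.14%. Gained calls were also frequent, at 8.95%, among regions with a peak in 1 PAX3-FOXO1 library, and made up 3.82% of kept regions with an RH30 peak. Over all regions of a class, with or without an RH30 peak, the order was the reverse, at 1.23% gained of the 2759 against 2.76% of kept regions. Of the 34 gained regions, 29 had no peak in the deposited DMSO lists either. The same held for 66 of 79 gained regions with a peak in 1 PAX3-FOXO1 library and 1914 of 2330 gained kept regions. The shares were thus alike and not particular to the 2759. Requiring a −log10 q of 10 left 12 gained and 4 lost. Leaving out a library loosens the rule and moved the counts. Without the first or the second QC6352 library 71 or 88 were gained and 16 were lost in both cases, and without either DMSO library 22 were lost.

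The leading gained regions showed modest peaks with the compound. The region chr2:12291585-12292144 had folds of 10.9 and 10.7 with QC6352 and no peak in the DMSO lists, and its vector folds in LHCN were 9.52 and 9.16. The region chr1:100071881-100072156 had 6.55 and 13.3 with QC6352 and none with DMSO. The region chr13:40705448-40705707 had 6.55 and 9.97 with QC6352 and none with DMSO. These 3 regions were also listed in both libraries titled shKDM4B-813 (peaks named sh814) and in no other hairpin library. The remaining leading gains were chr9:132249040-132249473, chr14:23160320-23160681 and chr21:36947535-36947885, with QC6352 folds of 6.17 to 6.91. The chromosome 9 region was also listed in both libraries titled shCtrl, at 7.06 and 7.34. Among the 7 lost regions, chr1:67469869-67470218, named after its values were seen, had no peak with QC6352 and folds of 8.97 and 6.76 with DMSO, and no peak in the hairpin libraries.

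The same was asked of KDM4B alone with the hairpins, and here the counts differed between the readings of the labels. The regions with a peak numbered 131 and 112 (4.75% and 4.06%) in the libraries titled shKDM4B-813, 80 and 67 (2.90% and 2.43%) in those titled shKDM4B-814 and 67 and 67 (2.43%) in those titled shCtrl. Among the hairpin libraries, those titled shKDM4B-813 stood above the rest. The deposited lists differ in length. They held 140342 and 138884 peaks in the libraries titled shKDM4B-813, 99660 and 93488 in those titled shKDM4B-814 and 135927 and 146395 in those titled shCtrl. Deposited counts in the libraries titled shKDM4B-813 were 201 and 152. They were 85 and 67 in those titled shKDM4B-814 and 89 and 102 in those titled shCtrl. By the peak names the high libraries, titled shKDM4B-813, are sh814. In the trimmed lists the libraries named sh813 had 67 and 67, against 80 and 67 in those named shCtrl.

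Shares in kept regions varied between the hairpin groups as well. Kept regions had a peak in 56.5% and 52.7% in the libraries titled shKDM4B-813, 51.4% and 48.5% in those titled shKDM4B-814, and 41.0% and 41.2% in those titled shCtrl. The libraries titled shCtrl were thus low for kept sites. The share of the 2759 regions divided by the share of kept regions was 0.0805 in the libraries titled shKDM4B-813, 0.0532 in those titled shKDM4B-814 and 0.0591 in those titled shCtrl, and was 0.0967 with QC6352 and 0.0562 with DMSO (means of 2).

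By the titles, shKDM4B-813 gained 42 of the regions, where 9.25% of all RH30 regions were gained, and lost 11, where 5.38% were lost. Of the 327 regions with an RH30 peak these are 12.8% and 3.36%, against 13.1% and 1.40% of kept regions with an RH30 peak. Gains with this hairpin were thus about as frequent as among kept sites, and losses more frequent than there but less frequent than over all RH30 regions. shKDM4B-814 gained 10 regions (3.06% of the 327, against 4.83% of all RH30 regions) and lost 11 (3.36%, against 4.35%), where 6.81% and 0.996% of kept regions with an RH30 peak were gained and lost. Both hairpins together gained 8 (2.45%, against 2.91%) and lost 6 (1.83%, against 3.41%), where the kept shares were 4.85% and 0.498%. These comparisons share the libraries titled shCtrl. Without the first or the second library titled shKDM4B-813, 65 or 89 regions were gained with that hairpin, and 18 were lost without the second. The shKDM4B-814 gains numbered 26 without its first library, 39 without its second and 16 without the first library titled shCtrl. Without the first or second library titled shCtrl, 25 or 22 were lost with shKDM4B-813 and 27 or 26 with shKDM4B-814. For both hairpins the gains were 13 or 15 without the first or second library titled shKDM4B-814, the losses 10 without the second, and 18 or 17 without the first or second titled shCtrl.

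By the peak names the same libraries gave other counts. The libraries named sh814 gained 24 regions (7.34% of the 327, against 3.99% of all RH30 regions and 4.74% of kept regions with an RH30 peak) and lost 2 (0.612%, against 2.09%). Over all regions of a class the gained shares had the reverse order, at 0.870% of the 2759 and 3.42% of kept regions. The libraries named sh813 gained 11 (3.36%, against 4.35% of all RH30 regions) and lost 10 (3.06%, against 4.83%), where 0.996% and 6.81% of kept regions with an RH30 peak were gained and lost. Both named hairpins together gained 1, chr19:50963439-50963874, and lost 1, chr8:26466134-26466704, where 0.165% and 0.903% of all RH30 regions were called. By the titles, 8 of the 10 shKDM4B-814 gains and 6 of its 11 losses were shared with shKDM4B-813. Over all RH30 regions 5911 of 9793 gains and 6920 of 8832 losses were. By the peak names, 1 of the 11 sh813 gains and 1 of its 10 losses were shared with sh814. Over all RH30 regions 334 of 8832 gains and 1832 of 9793 losses were. In each reading the hairpins share their control libraries.

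Among the leading hairpin gains by title were 2 of the 10 regions strongest in the vector lists. The region chr1:83616837-83617172, second among the 2759 by vector strength, had vector folds of 40.8 and 36.9. In RH30 it had folds of 38.1 and 27.5 in the libraries titled shKDM4B-813 and 7.73 and 9.02 in those titled shKDM4B-814, and no peak in those titled shCtrl or with QC6352 or DMSO. It was thus listed in 2 of the 3 hairpin groups, and by the peak names these are sh814 and shCtrl. The region chr5:163321545-163321934 had vector folds of 27.1 and 28.1. Its RH30 folds were 17.8 and 12.7 in the libraries titled shKDM4B-813 and 5.41 in the first titled shKDM4B-814, with no other RH30 peak.

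The other leading gains by title had lower vector peaks. The region chr4:33371134-33371454, next after the chromosome 1 region among the shKDM4B-813 gains, had vector folds of 15.8 and 13.9. It had folds of 19.9 and 15.6 in the libraries titled shKDM4B-813 and no peak in those titled shCtrl. The first library titled shKDM4B-814 had a peak of fold 11.6 there. By the peak names that library is a control, so the region was not a gain under that reading. The region chr6:74897950-74898246 had 17.8 and 12.3 in those libraries, 7.73 and 6.87 in those titled shKDM4B-814 and none in those titled shCtrl. It also had 14.2 and 21.6 with QC6352, against 5.07 in 1 DMSO library, so this site was listed higher with the compound and with the libraries titled shKDM4B-813. The other leading gains with shKDM4B-813 were chr5:9131715-9132036 and chr7:36298046-36298378. The chromosome 5 region had a peak of fold 5.79 in the first library titled shKDM4B-814, so it too was not a gain by the peak names. The chromosome 7 region was gained with both hairpins and had peaks in both DMSO libraries, of fold 4.65 and 6.42. Regions gained with both hairpins by title have peaks in the libraries named shCtrl, so they are not gains by the peak names. Leading gains by title shared by both hairpins included chr18:56257415-56257752, chr4:78421892-78422273 and chr14:38042620-38042933. The first and second of these also had peaks in both DMSO libraries. The leading gains of shKDM4B-814 added chr3:100215456-100216143, likewise listed in both DMSO libraries.

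By the peak names, the leading gain of sh814 was chr2:223275278-223275577, within the chromosome 2 window given above. It had folds of 24.3 and 14.8 in the libraries named sh814 and no peak in those named shCtrl. With QC6352 it had 8.01 and 9.49, against 5.07 in 1 DMSO library. It also had 7.34 in the second library titled shCtrl (named sh813), so by the titles it was not gained. The next were chr1:98464898-98465192, with 13.0 and 8.20 and no peak in any other RH30 library, and chr1:100071881-100072156, which was also among the leading QC6352 gains, with 10.9 and 7.38. The region chr15:95335384-95335664, at 10.5 and 6.97, lay in a chromosome 15 window given above and was listed in no other RH30 library. The remaining ones were chr15:40014110-40014401 and chr11:18334327-18334920. The chromosome 11 region went the other way with the compound and was called lost, with no peak with QC6352 and folds of 6.31 and 6.42 with DMSO.

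Gains with the compound and with a hairpin could be compared because their controls differ. Of the 34 regions gained with QC6352 and the 42 gained in the libraries titled shKDM4B-813 against those titled shCtrl, 5 were the same, which is 14.7% of the first list and 11.9% of the second. Among all 327 regions with an RH30 peak, 12.8% were gained in the libraries titled shKDM4B-813 and 10.4% with QC6352, so the shared part was close to those shares. Set against the libraries titled shKDM4B-814, as the peak names have it, the hairpin gains numbered 24, and 4 were the same, which is 11.8% and 16.7%, beside 7.34% and 10.4% among the 327. Regions with no peak in any control library and a peak in both libraries of at least 1 perturbed group numbered 47 by title and 40 by the peak names, out of 2759. As a share of the class, with or without an RH30 peak, these are 1.70% by title and 1.45% by the peak names, against 5.26% and 3.47% of kept regions. Among regions with any RH30 peak the order was the reverse. There the calls were 47 by title and 40 by the peak names of 327, against 4451 and 2933 of 61057 kept regions. The classes were not matched by vector rank here. Out of all 2759 regions, KDM4 perturbation therefore listed few as open in RH30.

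The 17 regions listed in all 10 RH30 libraries allow a comparison of peak strength, chosen after the data were seen. Those named by the rule were chr12:57542524-57543293, chr5:20601624-20602002, chr5:45385799-45386082, chr17:25829468-25830061, chr7:145626030-145626330, chr7:44438183-44438539, chr2:74800950-74801650 and chr9:28234895-28235217. Folds are each list's own values and are set side by side as a description. The chromosome 12 region is shown first because it led the rule. Its folds were 118 and 86.6 with QC6352, against 14.0 and 16.6 with DMSO. In the hairpin libraries they were 76.2 and 72.1 in those titled shKDM4B-813, 18.2 and 21.9 in those titled shKDM4B-814 and 116 and 128 in those titled shCtrl. By the peak names all 6 perturbed libraries lay at 72.1 to 128 and all 4 controls at 14.0 to 21.9, while by the titles the shCtrl libraries lay with the perturbed ones. In LHCN the vector folds were 11 and 12.1. RH30 lists held peaks of up to 236083 bp. With RH30 peaks over 5 kb left out, 26 of the 2759 regions had a peak in all 4 controls by title, against 27. The width of the RH30 peaks at the chromosome 12 region and its copy number were not examined. Their part in these folds was not tested.

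**Figure D5:**
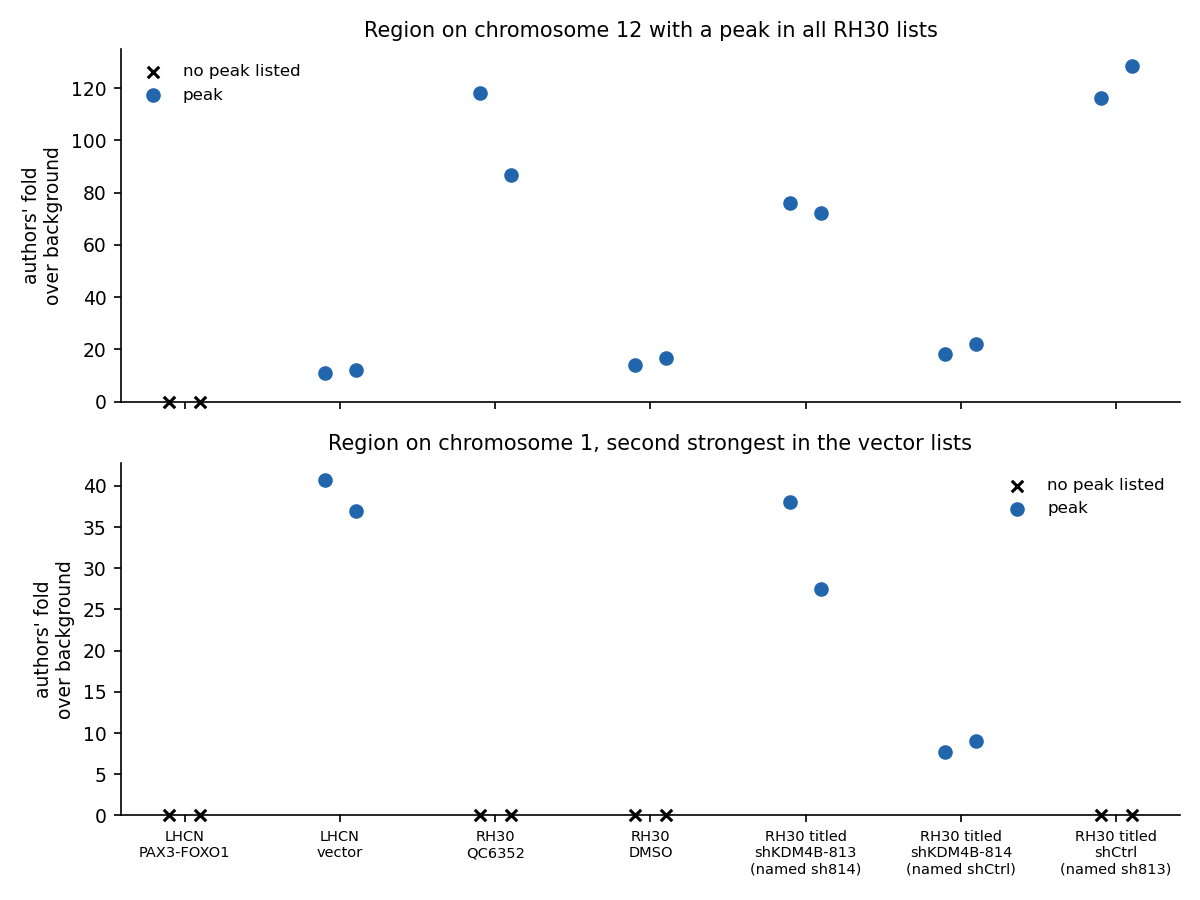
Authors' fold over background (y axes) in each of the 14 libraries by group (x axis) for the region chr12:57542524-57543293 (top) and chr1:83616837-83617172 (bottom); a cross marks a library with no listed peak. At top QC6352, titled shKDM4B-813 and titled shCtrl lie at 72.1 to 128 and the other RH30 libraries at 14.0 to 21.9; at bottom only vector and the libraries titled shKDM4B-813 and shKDM4B-814 have a peak.

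The chromosome 5 regions differed in another way. The region chr5:20601624-20602002 had folds of 17.8 and 18.7 with QC6352, against 21.9 and 17.9 with DMSO. It had 49.0 and 36.5 in the libraries titled shKDM4B-813, 40.6 and 33.5 in those titled shKDM4B-814 and 15.6 and 15.8 in those titled shCtrl. Within the trimmed lists its percentile was 96.5 and 96.8 with QC6352, against 89.2 and 85.3 with DMSO, so rank and fold ordered these libraries differently. The other, chr5:45385799-45386082, had 14.6 and 20.9 with QC6352, against 13.0 and 8.45 with DMSO, and 8.17 and 5.87 in the libraries titled shCtrl. By titles, the within-list percentile of these 2 regions was higher in all 6 perturbed libraries than in all 4 controls, where 2.68% of the 25108 strong vector regions listed in all 10 libraries were. None of the 17 was lower in all 6, where 1.89% were. By the peak names the region chr12:57542524-57543293 was higher in all 6 (background 0.398%), and chr12:54052693-54053030 was lower in all 6 (background 2.13%). With 17 regions these counts are too small to set apart from the background.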

How the data were processed

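ATAC-seq peak lists of 14 libraries, 1 list per library, were used. The submitters' processing notes list MACS2 2.1.1, SAMtools 1.3.1, Picard 1.65 and BWA 0.7.12-r1039, on build hg19. Whether reads were filtered, or shifted for the Tn5 cut, is not given in the sources used here. Per peak, the authors' fold over background is a ratio, and the authors' −log10 q ranked the peaks; both describe a peak within its own list and folds of different lists are only set side by side. The lowest deposited −log10 q was 2.00 to 2.60. Peaks were called per library, so replicates could be compared.

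The regions, lists and rules were chosen with earlier results of these data known. Groups came from the sample titles; the grouping by peak names was added after the data were seen, as were the neighbour counts, the leaving out of RH30 peaks over 5 kb and the strength comparison over 17 regions. A peak was counted where it overlapped a region by 1 bp. RH30 lists were trimmed to the 93488 strongest peaks, and percentiles were taken within these. Background shares cover the 202912 merged regions of the 10 trimmed RH30 lists. Regions are not replicates, and no p-value was computed: 2 against 2 libraries allow none below 0.333 and 4 against 2 none below 0.0667.

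Regions were named by rule: the 10 strongest in the vector lists, the 8 in most RH30 libraries, the 6 leading gains of each comparison, 3 each side of the limits, and the 5 fullest windows of 1 Mb, with a window tied for the last place named too. Python 3.11.15 with pandas 2.3.3, numpy 2.4.6 and matplotlib 3.10.9 was used. The code was tested on simulated lists, and bedtools 2.31.1 gave the same 2759 regions. Coordinates count from 1. An hg19 genome or annotation was not used here. Regions therefore carry no gene names, no sequence is printed, and the planned gene lists, motifs and promoter checks of the cell lines' markers were not run. The 9 regions of chromosome Y are counted only.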

Additional observations from a re-analysis of the deposited data

How the results depend on the processing

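Of 138 recomputed values, 82 stayed within 1.5 times the value reported and 56 moved further. The number of regions depended on the limits set: 84 from the 50000 strongest vector peaks, 13670 from the 150000 strongest, 5796 where a PAX3-FOXO1 peak had to cover 50% of the region, and 5209 where only PAX3-FOXO1 peaks of −log10 q of 10 or more counted. Ranking by fold left 2759. Leaving out 1 LHCN library gave 3741 to 5490.

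With RH30 peaks of −log10 q of 10 or more, 12 regions had a peak in all 4 controls and 168 in any RH30 library; QC6352 gained 12 and lost 4, shKDM4B-813 by title lost 5, shKDM4B-814 gained 5, and both hairpins gained 4. With regions from the 50000 strongest vector peaks, 1 had a peak in all 4 controls, 13 in any RH30 library and 71 in none; QC6352 gained 0 and lost 0, the hairpins gained 3 (shKDM4B-813), 2 (shKDM4B-814) and 1 (both), and lost 0 in each case. Both settings leave fewer peaks or regions by construction. In the deposited lists shKDM4B-814 by title lost 18.

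Leaving out 1 library, which loosens the rule, gave 40 to 88 gained and 16 to 22 lost with QC6352. By title it gave 46 to 89 gained and 13 to 25 lost with shKDM4B-813, 12 to 39 and 13 to 27 with shKDM4B-814, and 8 to 15 and 6 to 18 with both.

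Grouping the hairpins by the peak names gave 11 gained with sh813, 24 gained and 2 lost with sh814, and 1 gained and 1 lost with both. In the deposited lists these were 18 gained with sh813, 45 gained and 1 lost with sh814, and 4 gained and 1 lost with both. Leaving out RH30 peaks over 5 kb, or requiring a peak to cover 50% of a region in RH30, kept the RH30 counts run within 1.5 times.

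No paired analysis was possible because the results come from no test, and nothing in the labels ties equal replicate numbers of different groups to each other. The motif shares were not run, since no genome of the files' build was used here. Read depth is unknown, and its part in the absence of weak peaks was not tested.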
